A study of Mus musculus with 24 samples.

Results

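Dcn, Lum, Ogn, Fmod, Pdgfra, Igf2, Islr, Aldh1a2 and Slc6a13 are 9 genes known to mark fibroblasts of the vessel sheath and the meninges. They were taken by symbol from the normalized counts of mouse brain microvessels, where each had 1 row among 17270 genes. All 9 were among the 15982 genes tested, those that averaged more than 5 normalized counts across the 24 libraries. Male C57BL/6J mice of 10 to 12 weeks underwent transient middle cerebral artery occlusion (tMCAO), in which a filament blocks the artery for 60 min, or sham surgery, in which the filament was withdrawn at once. Microvessels were isolated 24 h or 7 days later from the ipsilateral (operated side) or the contralateral hemisphere. This gave 8 groups of 3 libraries, named here by surgery, hemisphere, time point and the number 1 to 3 in the labels. For each library 3 hemispheres of a kind were pooled. Outlying samples had been identified by the study ahead of its further analysis. All animals were kept under the same post-stroke care protocol, in which feeding and fluids were adapted to each animal. No group was unoperated. The meninges were removed by rolling the brains on filter paper.

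Fibroblasts of the brain lie in the space around larger vessels and in the layers of the meninges, outside the endothelium and the mural cells. They make collagens and small leucine-rich proteoglycans, which bind collagen fibrils and set their spacing, and they express the receptor PDGFRA. Meningeal fibroblasts are also known as a source of retinoic acid and of IGF2, and some of these genes are used by other cells of the brain as well, such as Pdgfra by oligodendrocyte precursors and Igf2 by the choroid plexus.

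All 9 genes are protein-coding and lie on 7 chromosomes of mm10 (GRCm38). Dcn (chr10:97479609-97518143) and Lum (chr10:97565128-97572703) are neighbours on the plus strand, 46985 bases apart. Fmod lies at chr1:134037254-134048277, Pdgfra at chr5:75152292-75198215 and Slc6a13 at chr6:121300227-121337733, all on the plus strand. Ogn lies at chr13:49608046-49624501 and Aldh1a2 at chr9:71215789-71296243, also on the plus strand. Igf2 (chr7:142650766-142666816) and Islr (chr9:58156268-58159221) are on the minus strand. For Islr, GENCODE M21, the source of the exon lengths, gives another end, 58204306. Igf2 is overlapped by the antisense gene Igf2os, which had a mean of 23.8 and at most 43 normalized counts. The protein-coding gene Gm49394, which had no row, also overlaps Igf2, on the same strand. The library kit kept the strand, but whether strand was used in counting is not given in the sources used here. Ogn is likewise overlapped by Cenpp on the other strand, with a mean of 5.08 normalized counts.

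The 250 bases before the annotated start are shown for Fmod and Ogn, which had the largest decreases at 24 h, and for Aldh1a2, which was lower at 7 days but not at 24 h. The sequences are from RefSeq (GRCm38.p6, plus strand), and capitals mark matches on either strand to TATAAA, the core promoter box, or CCAAT, which is bound by NF-Y. Also searched were GGGCGG, which is bound by SP1, and TGANTCA, the site of AP-1.
Fmod, chr1:134037004-134037253: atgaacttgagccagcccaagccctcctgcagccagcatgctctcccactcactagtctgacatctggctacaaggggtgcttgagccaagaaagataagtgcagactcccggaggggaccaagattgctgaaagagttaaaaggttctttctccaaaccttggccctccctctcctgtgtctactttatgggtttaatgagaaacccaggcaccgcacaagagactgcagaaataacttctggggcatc
Ogn, chr13:49607765-49608014: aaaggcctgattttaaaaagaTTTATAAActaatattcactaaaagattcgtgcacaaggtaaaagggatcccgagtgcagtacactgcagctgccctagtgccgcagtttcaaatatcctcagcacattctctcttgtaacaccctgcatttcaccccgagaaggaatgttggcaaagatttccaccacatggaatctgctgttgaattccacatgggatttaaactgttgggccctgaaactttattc
Aldh1a2, chr9:71215539-71215788: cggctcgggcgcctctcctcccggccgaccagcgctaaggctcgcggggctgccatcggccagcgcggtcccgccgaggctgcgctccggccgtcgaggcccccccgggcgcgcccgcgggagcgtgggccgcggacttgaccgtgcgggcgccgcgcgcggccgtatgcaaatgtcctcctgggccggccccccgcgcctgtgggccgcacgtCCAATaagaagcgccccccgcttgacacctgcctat
The Fmod window held none of the 4 motifs and had a GC content of 51.2%, near the median of 52.4% over 32851 such windows of mouse genes. The Ogn window had 42.0% GC and 2 overlapping matches to TATAAA, 229 and 227 bases before the start that it precedes, far from the usual place of this box. That start lies upstream of the gene start given above (49608046), since the window ends at 49608014. The Aldh1a2 window had 77.6% GC, more than 97.6% of the windows, with 40 CG pairs against a median of 6. Its CCAAT match began 36 bases before the start. Of all windows, 12.4% held TATAAA, 33.8% CCAAT, 32.7% GGGCGG and 6.75% TGANTCA. Windows were matched for 7 of the 9 genes, 12 windows in all. TGANTCA had no match in the 12 windows, while GGGCGG was matched in windows of Slc6a13 and Igf2.

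The libraries had total values of 15924780 to 18787932 normalized counts (median 16953257), and correlations of log2 values between libraries of a group were 0.967 to 0.988. For the labelled tissue, the summed level of 10 endothelial marker genes was 366604 to 572983 normalized counts in the 24 libraries. No other tissue was set beside it, so that it describes the libraries and does not test the microvessel label. Of 24 further matrix genes and 28 other genes of fibroblasts, none was at 0 in all libraries. This does not test the fibroblast label, since the same held for markers of neurons and of the choroid plexus. Marker genes of the choroid plexus differed widely between libraries, from 731 to 75338 summed normalized counts. The p-values rest on the spread between pooled samples within a group, pooled over the 8 groups, and not on single animals. In vessels taken as bulk samples, fewer fibroblasts in the brain, less meninges left after rolling and less RNA per fibroblast cannot be told apart.

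Levels of different genes were compared per kb of exon. Igf2 had the highest level in every group, for example 4463 ± 1068 normalized counts per kb (SD, n = 3) in sham ipsilateral hemispheres at 24 h. By the mean over the 24 libraries it ranked 178 among the 15966 tested genes with an exon length. Dcn followed with 803 ± 190, Fmod with 763 ± 212, Slc6a13 with 709 ± 247 and Aldh1a2 with 482 ± 160 per kb in that group. Islr had 424 ± 128, Ogn 378 ± 53.0, Lum 143 ± 42.8 and Pdgfra 129 ± 42.4 per kb. The libraries of each of these genes overlapped with those of the next in the order, except for Igf2 over Dcn and Ogn over Lum. Pdgfra was the lowest of the 9 genes in all 8 groups. In tMCAO ipsilateral hemispheres at 24 h Aldh1a2, with 608 ± 262 per kb, had the place after Dcn, ahead of Slc6a13 with 297 ± 142 and Fmod with 257 ± 148. From Dcn to Fmod, the libraries of each gene overlapped with those of the next in this order. At 7 days Slc6a13 (262 ± 43.9), Aldh1a2 (254 ± 28.6) and Fmod (242 ± 64.0) lay close together again after tMCAO.

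**Figure D1:**
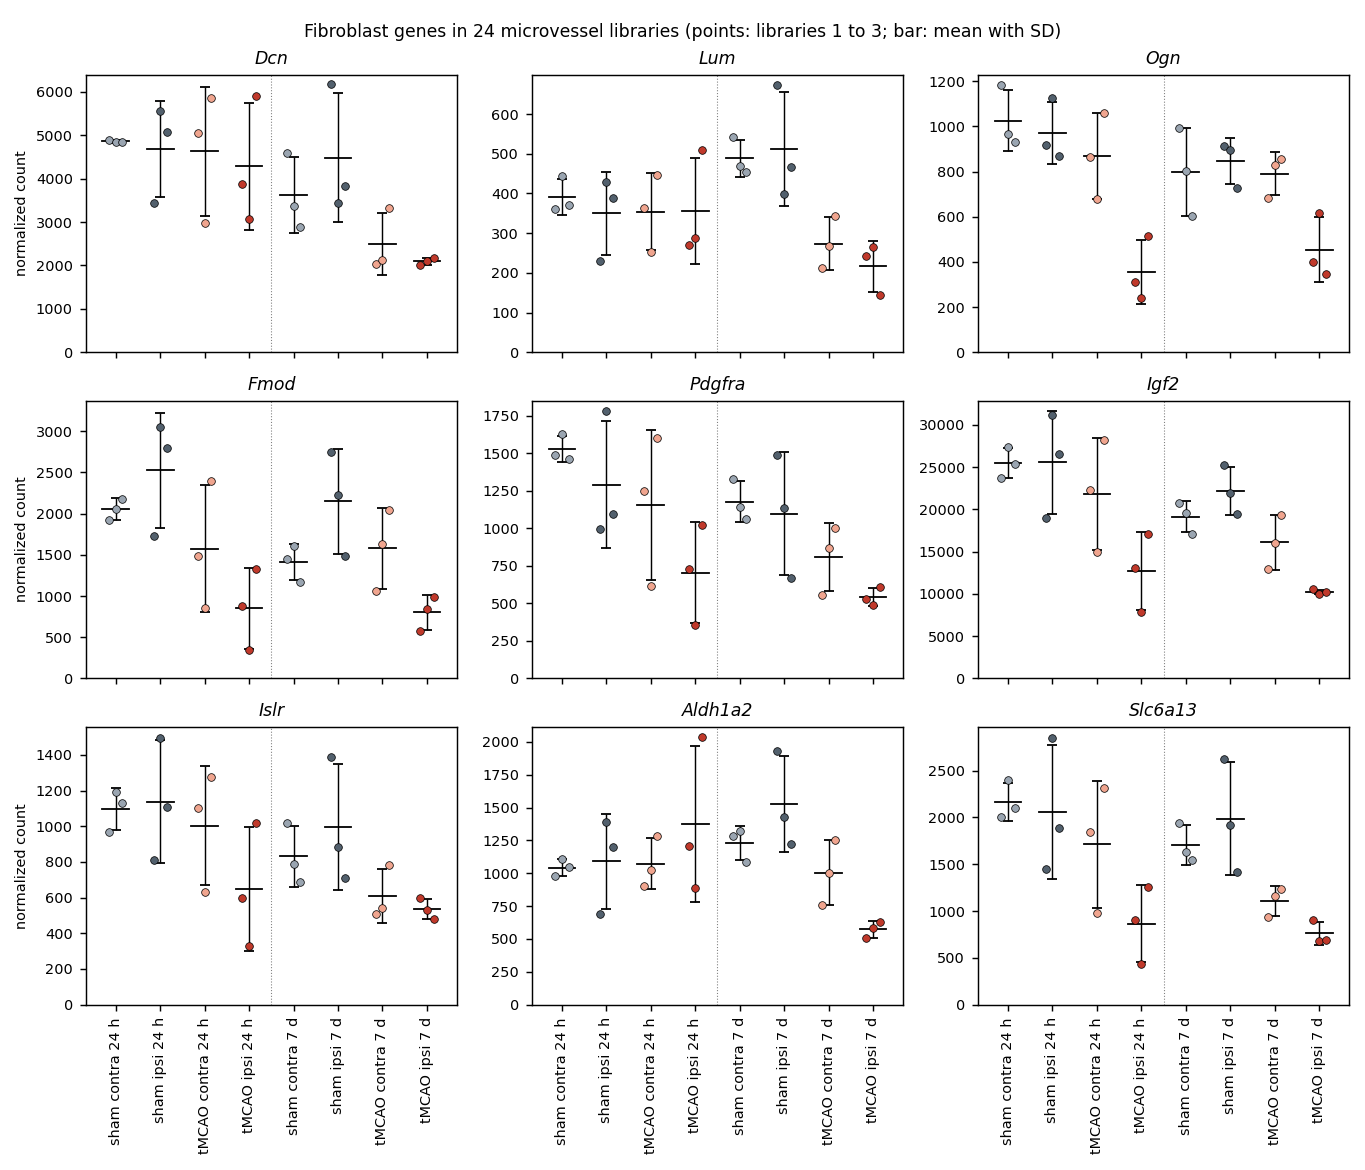
Normalized counts (y axis, linear, from 0) of the 9 genes in each of the 24 libraries by group (x axis); points are libraries 1 to 3 from left to right and bars the mean with SD. At 7 days the ipsilateral tMCAO libraries lie below all sham ipsilateral libraries for each gene, while at 24 h this holds for Ogn, Fmod, Igf2 and Slc6a13 and the libraries of Dcn, Lum and Aldh1a2 overlap with sham.

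Stroke ipsilateral versus sham ipsilateral compares the operated sides after tMCAO and after sham surgery. This difference is called the stroke effect here, and its cause was not tested. At 24 h, 5 of the 9 genes were lower after tMCAO and none was higher, where a gene counted as regulated with a Benjamini-Hochberg adjusted p in limma under 0.05 and a change of more than 1.5-fold. These were Fmod (3.31-fold), Ogn (2.84-fold), Slc6a13 (2.51-fold), Igf2 (2.08-fold) and Islr (1.88-fold), and 8.23% of all tested genes were regulated to lower levels. At 7 days 7 of the 9 genes were lower, against 9.95% of all genes. Fmod (2.67-fold), Aldh1a2 (2.62-fold), Slc6a13 (2.56-fold), Lum (2.38-fold), Igf2 (2.15-fold), Dcn (2.07-fold) and Ogn (1.91-fold) decreased, while Pdgfra and Islr did not pass the test. All 9 genes had tMCAO libraries below every sham library at 7 days, against 16.6% of all genes. At 24 h this held for 4 genes, against 24.1%. The median log2 fold change of the 9 genes was -0.96 at 24 h and -1.10 at 7 days, beside -0.02 and 0.02 for all tested genes. Fmod, Ogn, Slc6a13 and Igf2 passed the test at both time points, Dcn, Lum and Aldh1a2 at 7 days and Islr at 24 h.

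The calls differed in how far they rested on single libraries. At 24 h the call of Islr was lost without sham ipsilateral library 2 (adjusted p = 0.174) or 3 (0.0900), or tMCAO ipsilateral library 1 (0.0908) or 2 (0.279), and that of Pdgfra was gained without tMCAO ipsilateral library 3 (0.0155). At 7 days Dcn was lost without sham ipsilateral library 1 (adjusted p = 0.0769), Ogn without tMCAO library 1 (0.0551) or 3 (0.0647), and Fmod without sham library 1 (0.0836) or 2 (0.0574) or tMCAO library 1 (0.0998). Pdgfra was gained there without sham library 3 (0.0329). Igf2 and Slc6a13 stayed regulated at both time points whichever of the compared libraries was left out, as did Fmod and Ogn at 24 h and Lum and Aldh1a2 at 7 days.

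**Figure D2:**
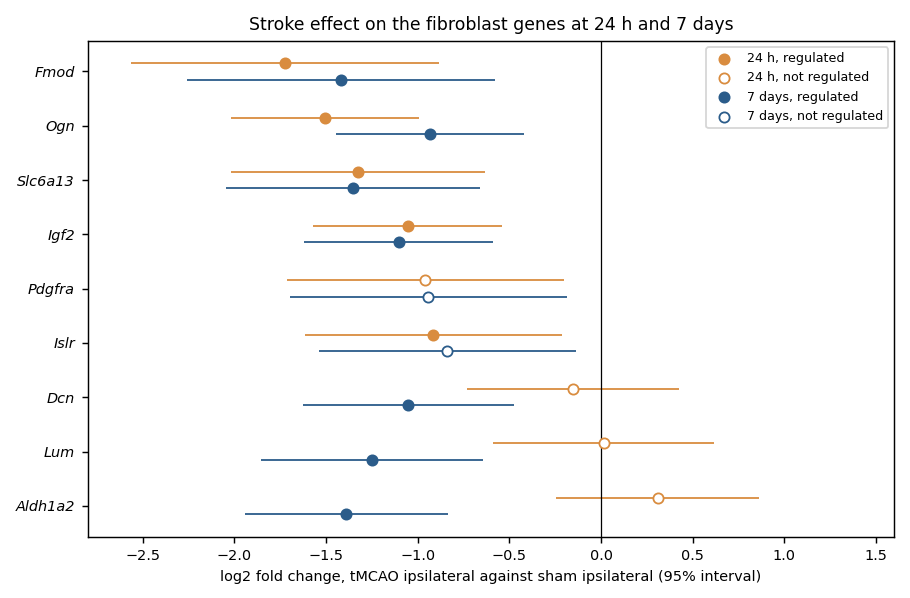
Log2 fold change of each gene (x axis, with 95% interval from limma) for tMCAO against sham ipsilateral hemispheres at 24 h and 7 days; filled points are regulated genes. The intervals of Dcn, Lum and Aldh1a2 span 0 at 24 h and lie below 0 at 7 days, and those of the other 6 genes lie below 0 at both time points.

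Fmod encodes fibromodulin, a proteoglycan that binds collagen fibrils and takes part in their cross-linking. At 24 h its values were 1728, 3053 and 2791 normalized counts in sham ipsilateral libraries 1 to 3 and 879, 348 and 1325 after tMCAO. At 7 days they were 2747, 2222 and 1481 in sham and 570, 844 and 986 after tMCAO. The groups did not overlap at either time point, though the spread of the tMCAO libraries at 24 h was wide (851 ± 489, SD, n = 3). Fmod decreased by 1.73 ± 0.40 (SE) on the log2 scale at 24 h (adjusted p = 0.00349) and by 1.42 ± 0.40 at 7 days (adjusted p = 0.0188).

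Ogn, which encodes osteoglycin (mimecan), had the smallest adjusted p of the 9 genes at 24 h. Its values were 917, 1124 and 868 normalized counts in sham ipsilateral libraries and 313, 241 and 513 after tMCAO. At 7 days they were 914, 896 and 729 in sham and 399, 617 and 347 after tMCAO. The tMCAO libraries were below the sham libraries on both occasions. The change was -1.51 ± 0.25 (log2, SE, adjusted p = 0.00017) at 24 h and -0.93 ± 0.25 (adjusted p = 0.0119) at 7 days. The contralateral tMCAO libraries of Ogn, 865, 679 and 1060 at 24 h and 682, 831 and 857 at 7 days, overlapped with the contralateral sham libraries, 1181, 965 and 931 at 24 h and 991, 804 and 601 at 7 days.

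Dcn encodes decorin and Lum lumican, proteoglycans that regulate the diameter of collagen fibrils. Dcn had 3442, 5563 and 5067 normalized counts in sham ipsilateral libraries at 24 h and 3879, 3075 and 5914 after tMCAO. These values overlapped, with a log2 fold change of -0.15 and a 95% interval of -0.73 to 0.42. At 7 days Dcn had 6181, 3442 and 3839 in sham and 2009, 2112 and 2161 after tMCAO, without overlap. It decreased by 1.05 ± 0.28 on the log2 scale (SE, adjusted p = 0.0116). Per kb of exon, Lum was the second least abundant of the 9 genes in most groups. Its counts were 231, 430 and 388 in sham and 271, 287 and 510 in tMCAO ipsilateral libraries at 24 h (log2 fold change 0.01, interval -0.59 to 0.62). At 7 days they were 673, 398 and 466 in sham and 242, 264 and 144 after tMCAO, again without overlap. Lum fell by 1.25 ± 0.29 (SE, adjusted p = 0.00477).

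Igf2 encodes the growth factor IGF2 and is expressed from the paternal allele in most tissues. Sham ipsilateral libraries at 24 h had 19011, 31118 and 26495 normalized counts and tMCAO libraries 13070, 7864 and 17045. At 7 days sham libraries had 25186, 21900 and 19459 and tMCAO libraries 10517, 10020 and 10236. The groups did not overlap, and the coefficient of variation of the tMCAO libraries was 2.43% at 7 days and 36.4% at 24 h. Igf2 decreased by 1.05 ± 0.25 on the log2 scale at 24 h (SE, adjusted p = 0.0036) and by 1.10 ± 0.25 at 7 days (adjusted p = 0.00357). In the same libraries choroid plexus markers, which mark another source of Igf2, had summed levels of 16158 to 29378 normalized counts in sham ipsilateral and 731 to 3294 in tMCAO ipsilateral libraries at 7 days. At 24 h they were 5241 to 75338 and 8121 to 20957 and overlapped. Their part in the Igf2 values was not tested.

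Pdgfra encodes the receptor for PDGF-AA and PDGF-CC. Its sham ipsilateral values at 24 h were 998, 1779 and 1097 normalized counts, and tMCAO values were 729, 354 and 1025, so that library 3 reached into the sham range. At 7 days they were 1491, 1134 and 671 in sham and 532, 492 and 608 after tMCAO, without overlap. The log2 fold changes were -0.96 (95% interval -1.71 to -0.20, adjusted p = 0.0505) and -0.94 (-1.70 to -0.19, adjusted p = 0.0822), and both missed the threshold. Markers of oligodendrocyte precursors, which share Pdgfra, had summed levels of 4158 to 4956 in sham and 2686 to 4689 in tMCAO ipsilateral libraries at 24 h. At 7 days they had 3621 to 4058 and 2574 to 3219, and their part in the Pdgfra values was not tested.

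Islr encodes a secreted leucine-rich repeat protein with an immunoglobulin domain, used as a marker of mesenchymal cells. The sham ipsilateral libraries had 812, 1497 and 1106 normalized counts at 24 h and 1389, 882 and 709 at 7 days. The tMCAO ipsilateral libraries had 599, 328 and 1020 at 24 h, with library 3 inside the sham range, and 595, 529 and 482 at 7 days. The log2 fold changes were -0.91 ± 0.34 (SE, adjusted p = 0.0445) and -0.84 ± 0.34 (adjusted p = 0.0963). The change at 7 days thus missed the threshold although the libraries did not overlap.

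Aldh1a2 encodes the retinaldehyde dehydrogenase that makes retinoic acid in the meninges. At 24 h it had 1209, 885 and 2037 normalized counts after tMCAO and 690, 1390 and 1196 in sham ipsilateral libraries. The groups overlapped, and the log2 fold change of 0.31 (95% interval -0.25 to 0.86, adjusted p = 0.396) did not pass the test. At 7 days the tMCAO libraries had 504, 586 and 632 and the sham libraries 1927, 1430 and 1221. This decrease of 1.39 ± 0.27 on the log2 scale had the smallest adjusted p of the 9 genes at 7 days (0.00099).

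Slc6a13 encodes the GABA and taurine transporter GAT2, which is known from the leptomeninges. Its sham ipsilateral libraries had 1445, 2846 and 1886 normalized counts at 24 h and its tMCAO libraries 903, 434 and 1253. At 7 days the values were 2626, 1918 and 1421 in sham and 907, 680 and 693 after tMCAO. Both comparisons were without overlap. Slc6a13 was lower at both time points, with log2 fold changes of -1.33 ± 0.33 (SE, adjusted p = 0.00564) and -1.35 ± 0.33 (adjusted p = 0.0072).

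Whether the stroke effect changed with time was tested as the difference of the ipsilateral effects, 7 days minus 24 h. Only Aldh1a2 of the 9 genes passed, with a difference of -1.70 ± 0.38 on the log2 scale (SE, adjusted p = 0.00743), and 5.68% of all tested genes were regulated in this direction. For Lum the difference was -1.26 (95% interval -2.12 to -0.41, adjusted p = 0.0544) and for Dcn -0.90 (-1.71 to -0.08, adjusted p = 0.15). Lum passed without sham ipsilateral library 2 at 24 h (adjusted p = 0.0431) or at 7 days (0.0450) or without tMCAO ipsilateral library 2 at 7 days (0.0469). Ogn had a difference of 0.57 (-0.15 to 1.30, adjusted p = 0.31), and those of the other 5 genes lay between -0.05 and 0.31. Between the ipsilateral shams of the 2 time points limma called 0 of the 9 genes, and 0 had an unadjusted p under 0.05 (2258 of all genes). Aldh1a2 and Lum had the largest changes there, with log2 fold changes of 0.52 (adjusted p = 0.394) and 0.56 (adjusted p = 0.393) at 7 days versus 24 h. Of all genes 0.476% were regulated between these shams.

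Stroke ipsilateral at 7 days versus 24 h compares the tMCAO libraries directly. Aldh1a2 (log2 fold change -1.18 ± 0.27, SE, adjusted p = 0.00445) and Dcn (-0.98 ± 0.28, adjusted p = 0.0175) were lower at 7 days, against 8.44% of all genes. Lum was at -0.70 (adjusted p = 0.096), and these 3 genes had no overlap between the time points (19.9% of all genes). The call of Dcn was lost without tMCAO ipsilateral library 3 at 24 h (adjusted p = 0.0889). The other 6 genes were between -0.24 and 0.38, the highest being Ogn (0.38, interval -0.13 to 0.89).

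Ipsi- versus contralateral hemispheres of tMCAO mice were the next comparison. At 24 h Ogn (log2 fold change -1.33, adjusted p = 0.00063), Slc6a13 (-1.03, adjusted p = 0.0282) and Igf2 (-0.81, adjusted p = 0.0217) were lower on the ipsilateral side, 3 of 9 genes against 5.14% of all genes. Fmod (-0.96, adjusted p = 0.0863), Pdgfra (-0.74, adjusted p = 0.145) and Islr (-0.72, adjusted p = 0.126) missed the threshold in this fit, which did not pair hemispheres. Only the libraries of Ogn were without overlap, against 19.1% of all genes. The count in this fit changed when single libraries were left out. It was 1 without contralateral library 1 or 3 or ipsilateral library 2, and 6 without contralateral library 2 or ipsilateral library 3. These fits did not pair hemispheres either, and each kept the same-numbered library of the other hemisphere. At 7 days Ogn alone was regulated (-0.83, adjusted p = 0.0225; 9.98% of all genes), and it was lost without contralateral library 2 or 3 or ipsilateral library 1 or 3 (adjusted p = 0.0633 to 0.111). Without contralateral library 1 the count was 2, with Aldh1a2 added (0.0336). Aldh1a2 (-0.78, adjusted p = 0.0506), Fmod (-0.97, adjusted p = 0.119) and Igf2 (-0.63, adjusted p = 0.0935) missed the threshold, though with Ogn and Slc6a13 they made 5 genes without overlap, against 14.6%. With the replicate number as a block, 6 of the 9 genes were lower ipsilaterally at 24 h and 4 at 7 days. The shares of all genes were 6.96% and 11.1%.

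Libraries with the same number in both hemispheres were also set side by side, without a test. After tMCAO at 24 h Ogn, Fmod, Pdgfra, Igf2, Islr and Slc6a13 were lower on the ipsilateral side for each of the 3 numbers, as were 32.6% of all tested genes. The log2 differences of Slc6a13 were -1.03, -1.18 and -0.89 and those of Igf2 -0.77, -0.93 and -0.72. Aldh1a2 had 0.42, -0.22 and 0.67 and Dcn -0.38, 0.05 and 0.01, without a common direction. At 7 days 7 genes were lower for each number (23% of all genes), and Lum and Islr for 2 of 3. In sham mice 0 of the 9 genes were lower on the ipsilateral side for all 3 numbers (19.5% of all genes at 24 h and 15.2% at 7 days). At 7 days 5 of them, Dcn, Fmod, Igf2, Islr and Aldh1a2, were higher on the ipsilateral sham side for all 3 numbers, beside 14.7% of all genes.

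The sham hemispheres and the contralateral hemispheres served as background. Between sham hemispheres 0 of 9 genes were regulated in limma at 24 h and at 7 days, as were 0 of all genes. Without adjustment 0 of the 9 had a p under 0.05, beside 367 and 359 of all genes. The log2 fold changes ran from -0.29 to 0.26 at 24 h and from -0.17 to 0.57 at 7 days, where Fmod was highest with 2747, 2222 and 1481 ipsilateral against 1455, 1611 and 1174 contralateral normalized counts. Contralateral tMCAO versus sham hemispheres had 0 regulated members at both time points. At 24 h the values ran from -0.51 (Pdgfra) to 0.03 (Aldh1a2), with 0 of 9 under an unadjusted p of 0.05 (405 of all genes), and 0 of all genes were regulated. At 7 days 7 of 9 were negative, led by Lum with -0.86 (95% interval -1.46 to -0.25, adjusted p = 0.367), the only one with an unadjusted p under 0.05 (1639 of all genes). Lum, Slc6a13 (-0.62) and Pdgfra (-0.58) were without overlap there, 3 of 9 against 4.76% of all genes, and 0.0313% of all genes were regulated. Contralateral Lum was 541, 470 and 453 in sham and 211, 268 and 342 after tMCAO. Ogn (0.01) and Fmod (0.12) had no lower contralateral level at 7 days. The sham contralateral libraries at 7 days were themselves below those at 24 h without overlap for 5 genes (8.63% of all genes) and above for Lum (9%), with 0 of the 9 regulated, 0 with an unadjusted p under 0.05 (1729 of all genes), and 0.332% of all genes regulated. Contralateral tMCAO libraries at 7 days versus 24 h also gave 0 regulated members, as well as 0 of all genes, and 1, Dcn, with an unadjusted p under 0.05 (-0.87, adjusted p = 0.153), beside 2637 of all genes.

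**Figure D3:**
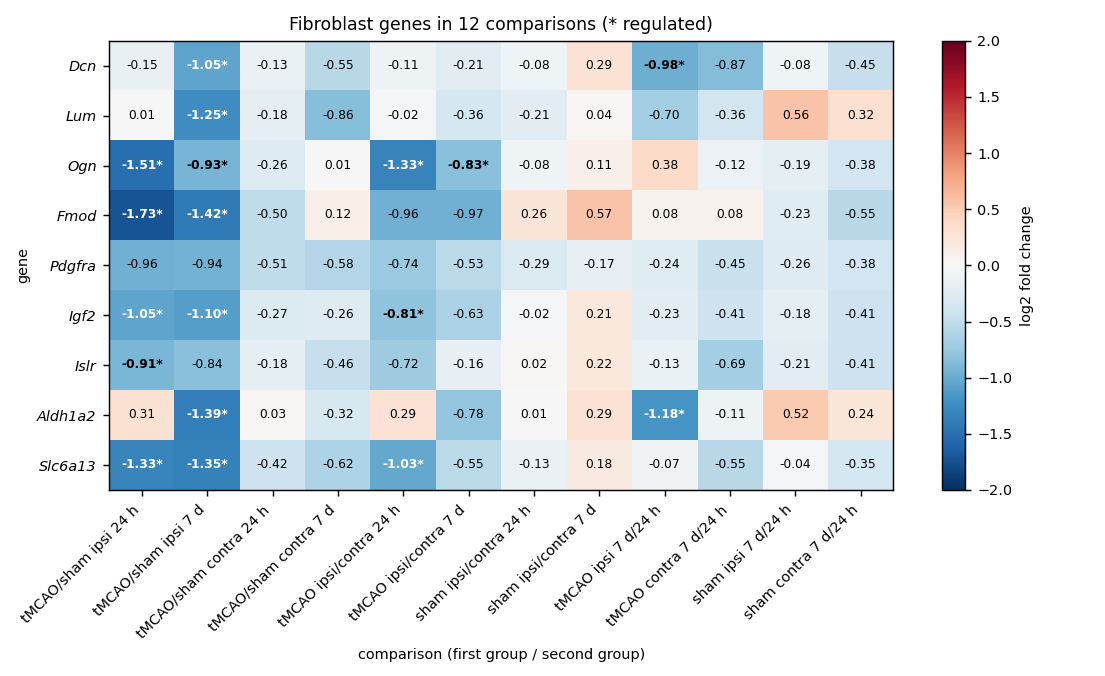
Log2 fold change (colour and number) of the 9 genes (rows) in the 12 comparisons of 2 groups (columns, first group over second); asterisks mark regulated genes. Regulated genes appear in the columns that hold an ipsilateral tMCAO group and in no column between control groups.

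In several groups the 9 genes were high or low in the same libraries. In tMCAO libraries at 24 h number 3 was the highest for 9 of 9 genes and number 2 the lowest for 8 of 9, in the ipsilateral and in the contralateral hemisphere alike. Of all tested genes, 31.4% and 30.1% were highest in number 3 and 31.9% and 36.8% lowest in number 2 on these sides. Ipsilateral library 2 was on average 1.11 below the 24-library mean of the 9 genes on the log2 scale (-1.11), and library 3 was above it (0.20). Of the sham ipsilateral libraries, number 2 at 24 h and number 1 at 7 days were highest for 9 of 9 genes (34.7% and 26% of all genes). In contralateral tMCAO libraries at 7 days number 1 was the lowest and number 3 the highest for 9 of 9 (31.6% and 31.3% of all genes). Sham contralateral libraries at 24 h had no single order, since 6 genes were lowest in number 1 and 3 in number 3, and 6 were highest in number 2. The ipsilateral tMCAO libraries at 7 days had no common order either, and their mean deviations were -0.81, -0.72 and -0.84. Their summed level of the 9 genes was 16144 to 16289 normalized counts, against 13816 to 30642 after tMCAO at 24 h, 29996 to 43134 in sham ipsilateral libraries at 7 days and 29274 to 48800 at 24 h. The sums at 24 h overlapped between tMCAO and sham, and those at 7 days did not.

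**Figure D4:**
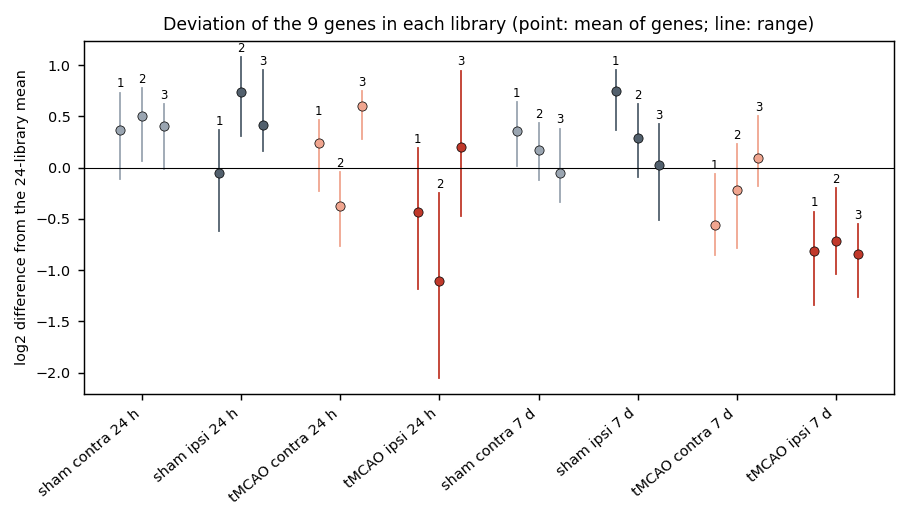
Difference of the log2 level of the 9 genes from their 24-library mean (y axis) in each library (numbers 1 to 3) by group (x axis); points are the mean of the 9 genes and lines run from the lowest to the highest gene. Ipsilateral tMCAO libraries at 24 h spread from -1.11 to 0.20, and those at 7 days lie between -0.84 and -0.72.

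Other genes of fibroblasts were compared by lists, for tMCAO against sham ipsilateral hemispheres. Of all tested genes, 8.23% were lower at 24 h and 9.95% at 7 days. The share of higher genes in this fit is not given here. Another fit, with the replicate number as a block, had 1573 of 15982 genes higher at 24 h and 540 at 7 days. Those counts are thus not a like measure for the lists. Of 28 further fibroblast genes, among them transcription factors, enzymes and transporters, 9 were lower at 24 h and 16 at 7 days, none was higher, and the medians were -0.65 and -0.85. The largest decrease at 24 h was that of Slc13a4, a sulfate transporter (-1.50, adjusted p = 0.0102), and at 7 days that of Gjb2, which encodes connexin 26 (-1.97, adjusted p = 0.00026). Of 24 matrix genes, 4 were lower and 1 higher at each time point, with medians of -0.04 and -0.41. Postn (periostin) had the largest decrease at 24 h (-1.33, adjusted p = 0.00058) and Col12a1 at 7 days (-1.36, adjusted p = 0.0017). The largest increases were those of Tnc (tenascin C) at 24 h (6.00, adjusted p = 7.5e-08), which is also made by astrocytes, and of Fn1 (fibronectin) at 7 days (0.65, adjusted p = 0.0144). Of the fibrillar collagen genes Col1a1 was at -0.08 and -0.50, Col1a2 at -0.46 and -0.60 and Col3a1 at 0.47 and -0.28 at 24 h and 7 days. None of these 3 passed the test, and other fibrillar collagens of the list are not named here. The 3 collagens were picked for naming with their values known.

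**Figure D5:**
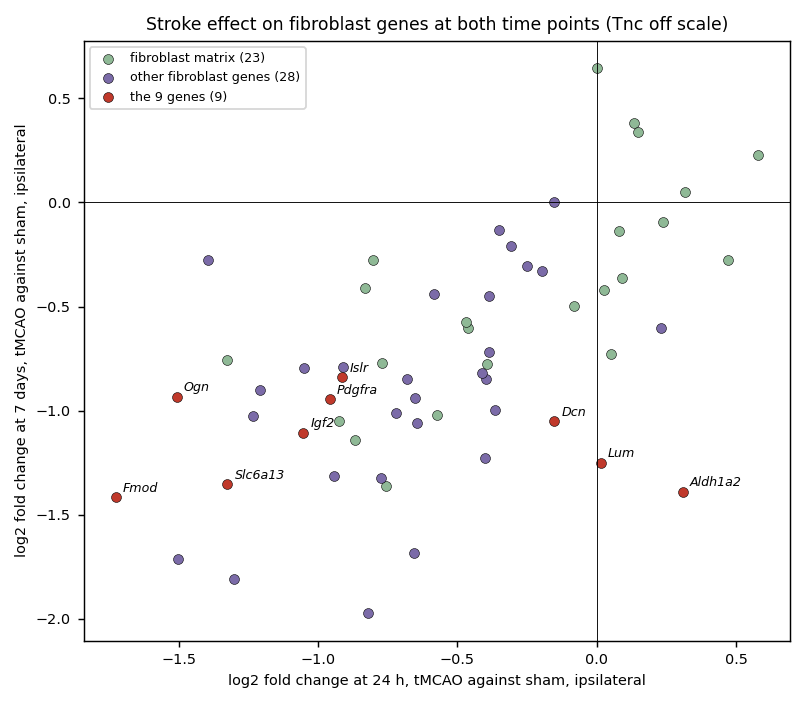
Log2 fold change of tMCAO against sham ipsilateral hemispheres at 24 h (x axis) and at 7 days (y axis) for the 9 genes, 28 other fibroblast genes and 23 of 24 matrix genes (Tnc, at 6.00 and 0.19, is off the scale). The 9 genes all lie below 0 at 7 days, with Dcn, Lum and Aldh1a2 near or right of 0 at 24 h.

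Genes of the same families and pathways were described in the same comparison, where 8.23% of all tested genes were lower at 24 h and 9.95% at 7 days. Of 9 other small leucine-rich proteoglycans with a row, 3 were lower and 1 higher at 24 h, and 1 was lower at 7 days (medians -0.33 and -0.47). Omd, the neighbour of Ogn at a distance of 15224 bases, decreased most, by 1.47 on the log2 scale at 24 h (adjusted p = 0.00328) and by 1.01 at 7 days (adjusted p = 0.0458). Tsku rose at 24 h (1.20, adjusted p = 0.00637). Of 6 genes of PDGF ligands and receptors, only Pdgfd passed the test, with -0.70 at 24 h (adjusted p = 7.1e-05). Its ligand relatives Pdgfa (0.21 and 0.14) and Pdgfc (-0.60 and 0.50), which bind PDGFRA and were picked with their values known, did not pass at 24 h or 7 days.

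The IGF system had 13 tested genes, of which 4 rose and 3 fell at 24 h and 2 rose and 1 fell at 7 days (medians -0.07 and 0.53). Of all tested genes 8.23% fell at 24 h and 9.95% at 7 days. The share that rose in this fit is not given here. Another fit, with the replicate number as a block, had 1573 of 15982 genes higher at 24 h and 540 at 7 days. Those counts are thus not a like measure for the genes that rose here. Igfbp2, a binding protein for IGF2, decreased by 1.22 (adjusted p = 0.0197) and 1.36 (adjusted p = 0.0161). H19, a non-coding RNA from the same imprinted region as Igf2, had means of 5.67 in sham and 79.3 normalized counts after tMCAO at 24 h (log2 fold change 2.38, adjusted p = 0.0389) and of 4.67 and 57.7 at 7 days (3.37, adjusted p = 0.00855). Its tMCAO libraries ran from 5 to 207 at 24 h, which overlapped with 3 to 9 in sham, and from 36 to 78 at 7 days, above 3 to 7 in sham. Of 15 genes of retinoid metabolism and signalling, 1 was higher and 2 were lower at 24 h and 4 were lower at 7 days (medians -0.28 and -0.19). Rdh10, which makes the retinaldehyde used by ALDH1A2, rose at 24 h (1.54, adjusted p = 0.00067) and was at -0.53 at 7 days (adjusted p = 0.248). Rxrg, a retinoid X receptor of low level, decreased by 1.24 (adjusted p = 0.0366) and 1.85 (adjusted p = 0.00527). Of 7 other SLC6 transporters, 4 were lower at each time point (medians -0.77 and -0.86). Slc6a11, which encodes the GABA transporter GAT3 of astrocytes, decreased most at 24 h (-1.31, adjusted p = 0.0167). Slc6a12, 5343 bases from Slc6a13 and named for this position, was at 0.15 and -0.54 and did not pass.

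Markers of other cells moved in the same comparison. Of all tested genes, 8.23% were lower at 24 h and 9.95% at 7 days. The share of higher genes in this fit is not given here. Another fit, with the replicate number as a block, had 1573 of 15982 genes higher at 24 h and 540 at 7 days. Those counts are thus not a like measure for the markers. Of 9 pericyte markers, 4 were lower at 24 h (largest Atp13a5, -0.88) and 2 at 7 days (largest Vtn, -1.003). Of 10 endothelial markers, 2 were lower at 24 h (largest Slco1a4, -1.03) and none at 7 days, and of 6 smooth muscle markers 1 at 24 h (Myl9, -0.72) and none at 7 days. Of 8 neuronal markers, 5 were lower at 24 h (largest Nefl, -1.995) and 7 at 7 days (largest Syt1, -3.80), and their summed level in tMCAO ipsilateral libraries, 2317 to 3156 at 24 h and 2190 to 2733 at 7 days, lay below that of sham, 5481 to 5895 and 5250 to 7994. Of 8 astrocyte markers, 5 were lower at 24 h (largest Gjb6, -1.47) and 3 at 7 days (largest Slc1a2, -1.74). Of 12 markers of oligodendrocyte precursors, 4 were lower at 24 h (largest Gpr17, -1.54) and 9 at 7 days (largest Sox10, -2.23), with Vcan higher at both (2.15 and 0.84). Of 6 oligodendrocyte markers, 2 were lower at 24 h and 1 at 7 days (Mog, -1.30). Of 10 choroid plexus markers none passed at 24 h and 6 were lower at 7 days (largest Ttr, -3.93, adjusted p = 0.0142), and of 5 arachnoid barrier markers none passed at 24 h and 2 were lower at 7 days (largest Krt18, -2.25). Macrophage markers rose at 24 h for 6 of 10 (largest Ccr2, 2.64) and fell at 7 days for 2 (largest Pf4, -1.66), and of 8 proliferation genes 1 was higher at 24 h (Aurkb, 1.55) and 8 at 7 days (largest Aurkb, 2.99). Crabp2, Pdgfrb, Pdgfrl, Slc47a1 and Slc6a20a each stood in more than 1 list. The part of these cells in the values of the 9 genes was not tested.

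The genes most like the 9 were found from the Pearson correlation, over the 24 libraries, with the mean of their scaled log2 levels. These were Bmp6 (r = 0.956), Fam180a (0.949), Colec12 (0.948), Tmem132c (0.946) and Slc13a4 (0.943). The libraries are not independent of each other, since they share groups, so that these values are a description. Of the 9 genes themselves Igf2 (0.971), Slc6a13 (0.963), Islr (0.954) and Pdgfra (0.947) were nearest to the common mean, of which each is a part. Fmod (0.901), Dcn (0.850), Ogn (0.816), Lum (0.805) and Aldh1a2 (0.733) followed. Bmp6, a ligand of the BMP family, changed by -0.99 at 24 h (adjusted p = 0.0307) and -1.03 at 7 days (adjusted p = 0.0372). Colec12, a scavenger receptor, changed by -0.94 (adjusted p = 0.00564) and -0.77 (adjusted p = 0.027).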

How the data were processed

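Microvessel RNA of 24 libraries was examined, 3 for each of 8 groups taken from the labels. According to the submitters' processing notes, STAR 2.5.2b, featureCounts 1.5.1 and DESeq2 1.6.2 were used with mm10. The deposited values are a score, since the authors scaled the reads of each library with DESeq2 and gave whole numbers. Size factors of 0.805 to 1.24 were estimated from gaps between low values, which gives 13691467 to 20033951 reads on genes per library.

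The 15982 genes that averaged more than 5 were fitted, as log2(value + 1), with limma 3.58.1 in R 4.3.3, in 1 model of the 8 groups that let the variance follow the mean level. Benjamini-Hochberg adjustment covered all these genes. Regulated genes had adjusted p-values under 0.05 and log2 fold changes past 0.585 in either direction. The fit was tested on simulated data. Tables and figures were made in Python 3.11.15 with pandas 2.3.3, numpy 2.4.6 and matplotlib 3.10.9. Exon lengths were taken from GENCODE M21. The 9 genes and the lists were chosen with earlier results of these data known. All 9 genes were named, with the called gene of largest increase and of largest decrease in each list at 24 h and 7 days and the 5 genes most like the 9. The values of 2 genes that this rule names are not reported here.

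Same-numbered hemispheres of sham mice deviated together (correlations 0.145 to 0.467), and the replicate number as a block changed no call of the 9 genes there. Alternatives were another pseudocount, other filters, centring on the median or on endothelial markers, only the compared groups, the block, a length and GC correction and fits that omitted single libraries. The qPCR and staining data were not analysed here.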

Additional observations from a re-analysis of the deposited data

Results flagged for a closer look

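The ipsilateral stroke effect on Aldh1a2 differed between the time points in limma, by -1.70 on the log2 scale at 7 days minus 24 h (adjusted p = 0.00743), and it passed the threshold under every alternative run (adjusted p 0.0016 to 0.032). The effect also differed for Tnc (-5.81), Pf4 (-2.69), Syt1 (-2.54), Rdh10 (-2.07), Vcan (-1.30) and Pdgfd (0.69), with adjusted p-values of 3.7e-05, 0.00035, 0.00631, 0.00374, 0.0308 and 0.0056. No reason for these differences was tested.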

How the results depend on the processing

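No change against sham that passed the test at a time point reversed its sign at that time point under any alternative. At 24 h against sham, Dcn was 0.0598 without both libraries of tMCAO number 2, 0.0613 with centring on endothelial markers and 0.0406 with the length and GC correction, and Lum was -0.0495 with median centring and -0.0691 with that correction. Without 1 library each, Dcn ran from -0.412 to 0.0598, Lum from -0.276 to 0.187 and Aldh1a2 from -0.0172 to 0.584. Number 2, the endothelial centring and the correction were chosen after seeing the data. With 1 library left out, the counts of regulated genes were 4 to 6 at 24 h and 5 to 8 at 7 days against sham, 1 to 2 for 7 days against 24 h, 1 to 6 and 0 to 2 between tMCAO hemispheres, and 1 to 2 for the difference of the stroke effects.

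The labels give same-numbered hemispheres of tMCAO mice only a shared number. Correlations of their deviations were 0.0658 to 0.360 at 24 h and 0.0593 to 0.309 at 7 days. Whether they came from the same animals is not stated, so that fits without a block may ignore a pairing. Fits with a replicate block gave 6 genes lower ipsilaterally at 24 h instead of 3 and 4 at 7 days instead of 1, beside 6.96% and 11.1% of all genes. Between these hemispheres the count was 1 at 24 h with only the compared groups or endothelial centring, and 2 at 7 days with endothelial centring or the length and GC correction. The latter left 1 gene for 7 days against 24 h. The difference of the stroke effects gave 2 genes with a minimum mean of 20 and 3 with endothelial centring. Islr at 24 h against sham lost its call with only the compared groups (adjusted p = 0.108), the block (0.0503), endothelial centring (0.156) or without tMCAO number 2 (0.224), Pdgfra gained one with the minimum mean of 20 (0.048) or median centring (0.0365), and Dcn at 7 days lost it with the length and GC correction (0.0638). The cause was not tested. Endothelial centring moved the median of all genes against sham to 0.19 at 24 h and -0.13 at 7 days.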
